A study of Rattus norvegicus with 12 samples.

Results

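The messages of 7 glycolytic enzymes were followed in the injured rat spinal cord: the hexokinases Hk2 and Hk3, the phosphofructokinase Pfkp, the aldolase Aldoc, the enolase Eno2, the pyruvate kinase Pkm and the lactate dehydrogenase Ldha. They were chosen by gene name, as isoforms linked to neurons, glia or leukocytes, with earlier results of these data known. Each had 1 probe on the array, which made 7 of 22226 probes, and all 7 were among the 13793 probes tested, having a detection p under 0.05 on no fewer than 2 of the 12 arrays.

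The animals were female Sprague-Dawley rats, 10 weeks old, that underwent a mild compression of the thoracic cord or a sham operation. G93A rats bore mutant SOD1, a superoxide dismutase whose G93A change causes amyotrophic lateral sclerosis in people, and WT rats were their wild-type littermates. For each genotype, RNA of the thoracic cord was combined into 1 pool at 30 min, 4 h, 24 h and 7 d after injury and into 1 pool at 30 min and 4 h after sham surgery. The promoter behind the mutant gene and the number of rats in a pool are not given in the sources used here. G93A and WT pools of a condition therefore served as its 2 replicates, so that every p-value reflects only how these pools varied, a spread that may be technical.

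Glycolysis splits glucose into pyruvate and yields ATP without oxygen. Hexokinase traps glucose in the cell as glucose 6-phosphate, phosphofructokinase makes the committed step, aldolase splits the sugar, enolase and pyruvate kinase finish the path, and lactate dehydrogenase interconverts pyruvate and lactate. Most of these steps are carried out by isoforms that differ between cell types: aldolase C is the brain form and is strong in astrocytes, enolase 2 is the neuron-specific enolase used as a marker of nerve cell damage, and hexokinase 3 is abundant in white blood cells. The type of cell that held a message could not be read from RNA of whole tissue.

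The share of probes detected lay between 49.6% and 53.8% in 11 pools and was 41.3% in the WT pool at 30 min after injury. That pool stood apart, since its G93A partner differed from it at least 2-fold at 1064 probes, whereas the genotypes of the other 5 conditions did so at 6 to 116. Probe identifiers were put into sorted order beside the deposited values, because the deposited pairing placed silent and active genes at like levels: 6.08% of the measurements of smell and pheromone receptors were detected after sorting and 51.8% as deposited, and for ribosomal and proteasome genes the shares were 91.6% after sorting and 54.0% as deposited. All gene names below rest on that pairing. The 11 neuronal and 7 oligodendrocyte markers on the array were each detected on at least 1 sham array. The rat Sod1 probe, which need not read the mutant gene, lay between 12.42 and 12.90 in G93A and between 12.29 and 12.95 in WT pools (log2 level). Precision throughout is limited by how few arrays there are.

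Most of the called changes came late, and they went in both directions. The late comparisons used 4 sham pools not matched in time and the early ones 2 matched pools, so their numbers of calls are not directly comparable. At 24 h after injury Hk3, Ldha and Hk2 rose and Pkm fell, and at 7 d Hk3 was still raised while Pkm, Eno2 and Aldoc were lowered, each relative to the mean of all 4 sham pools. Thus 3 of the 7 enzymes were higher and 1 was lower at 24 h, beside 11.4% of all tested probes called higher and 9.37% called lower (20.8% in either direction). At 7 d 1 was higher and 3 were lower, beside 11.4% and 9.63% of all tested probes (21% in either direction). Because the 7 enzymes were chosen with earlier results of these data known, these counts do not test glycolytic enzymes as a group. The median difference of the 7 enzymes was -0.39 at 24 h and -0.30 at 7 d (log2), while that of all tested probes was -0.01 at both times. Without the WT pool at 30 min after injury, the counts were 3 higher and 4 lower at 24 h and 2 higher and 3 lower at 7 d: Pfkp (adjusted p = 0.0252), Aldoc (adjusted p = 0.0238) and Eno2 (adjusted p = 0.0432) were then called lower at 24 h and Hk2 higher at 7 d (adjusted p = 0.0259). Leaving out the G93A pool of that time gave the same counts, which is not a second check. In this fit, leaving out either pool of a condition removes that condition from the estimate of the spread. Calls are adjusted p-values under 0.05 from limma. With median scaling in place of quantile normalization, the share of higher calls among all called probes was 69.6% in place of 55.0% at 24 h and 40.6% in place of 54.2% at 7 d. In RNA of whole tissue, fewer cells of a type and less RNA per cell cannot be told apart.

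**Figure D1:**
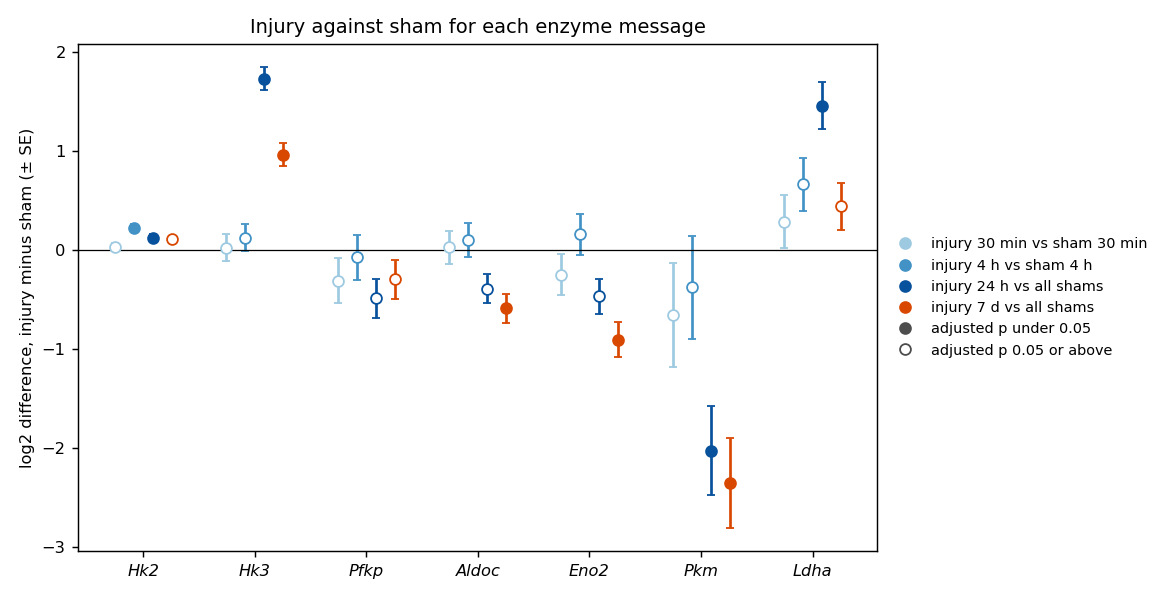
Log2 difference, injury minus sham, for each of the 7 enzymes at 30 min and 4 h (against the sham pools of the same time) and at 24 h and 7 d (against all 4 sham pools). Points are estimates of the fit over all 12 pools, bars are standard errors and filled points had an adjusted p under 0.05. Hk3 reached 1.73 and Ldha 1.46 at 24 h, and Pkm reached -2.35 at 7 d.

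Hk3, the hexokinase best known from leukocytes, made the largest increase of the 7. Its normalized level (log2, after background correction and an offset of 16) was 8.15 and 8.29 at 24 h and 7.24 and 7.66 at 7 d after injury in G93A and WT pools, against 6.47, 6.48, 6.50 and 6.49 in the 4 sham pools (here and below G93A and WT at 30 min, then G93A and WT at 4 h). No late pool overlapped with a sham pool, and the 24 h pools lay above the 7 d pools. In the sham pools the probe was close to background, with 1 of 4 arrays detected and deposited signals between 5.59 and 13.6, whereas the signals at 24 h were 305.9 and 337.7. The difference from sham was 1.73 ± 0.12 at 24 h (SE, 2 pools against 4, 3.32-fold, adjusted p = 2.46e-05) and 0.96 ± 0.12 at 7 d (1.95-fold, adjusted p = 0.000273). Both calls were kept in 20 of 20 alternative settings. The size depended on the treatment of background: the 24 h difference was 3.02 without background correction and 3.80 with the series matrix values.

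Hk3 was lower at 7 d than at 24 h, with a difference of -0.77 ± 0.14 (SE, 2 pools against 2, adjusted p = 0.00952), the only one of the 7 enzymes called in that comparison, where 4.52% of all tested probes were called, 2.96% higher and 1.57% lower. With median scaling, 27.3% of all calls in that comparison were higher, in place of 65.4%. The same direction was seen in both genotypes (-0.91 in G93A, -0.62 in WT). The call was lost without the WT pool at 24 h (-0.73, adjusted p = 0.0754), without the G93A pool at 7 d (-0.56, adjusted p = 0.0713), without background correction (adjusted p = 0.107) and with the series matrix values (adjusted p = 0.208). Leukocyte markers were measured in the same pools. Of 10 tested neutrophil markers, 3 were higher at 24 h and 2 at 7 d, and 2 were lower at 7 d than at 24 h. Of all tested probes, 11.4% were called higher at 24 h and 11.4% at 7 d, and the neutrophil count at 7 d was near that share. The summed level of all 12 neutrophil markers on the array was 2228 to 2697 at 24 h and 1108 to 1362 at 7 d, against 1071 to 1649 in sham pools. Of these 12, S100a9, Mpo, Np4, Mmp8 and Fpr1 were not detected on either array at 24 h. Of 10 microglia and macrophage markers, 7 were higher at 24 h and 8 at 7 d, with summed levels of 10100 to 10179 and 28569 to 31642, against 4671 to 5284 in sham pools. Between 24 h and 7 d, where Hk3 was lower at 7 d, 8 of the 10 microglia and macrophage markers were higher at 7 d and 0 were lower. The part of either cell type in the Hk3 values was not tested. The upstream sequence of Hk3 (RefSeq, GRCr8, chr17:9604781-9605030, plus strand, 250 bases before the transcript start that the promoter table uses) is printed because Hk3 rose most, with capitals marking the core of the hypoxia response element (ACGTG on either strand).
Hk3: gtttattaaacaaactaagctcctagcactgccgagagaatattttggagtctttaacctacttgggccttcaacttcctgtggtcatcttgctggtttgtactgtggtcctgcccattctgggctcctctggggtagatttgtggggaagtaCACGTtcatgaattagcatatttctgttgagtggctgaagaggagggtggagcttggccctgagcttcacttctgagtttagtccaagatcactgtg
The single match lay 97 bases before the start. No GAGGAA, a form of the site read by the myeloid factor PU.1, was found on either strand in this window, and other forms were not searched for. For Hk3, Pfkp and Pkm that transcript start lies inside the gene's annotated extent in the same assembly, so other starts of these genes have other upstream sequences.

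Hk2, the insulin- and stress-inducible hexokinase of muscle and activated cells, was called at 4 h and 24 h. Its levels were 6.83 and 6.73 at 4 h after injury in G93A and WT pools, against 6.55 and 6.56 in the 4 h sham pools. The difference of 0.22 ± 0.04 (SE, 2 pools against 2, adjusted p = 0.0484) made Hk2 the only enzyme of the 7 called at 4 h, where 0.551% of all tested probes were called, 0.522% higher and 0.029% lower. The 4 h difference was positive in both genotypes, 0.28 in G93A and 0.17 in WT. At 24 h both pools stood at 6.63, and the difference from all sham pools was 0.12 ± 0.04 (adjusted p = 0.0377). At 7 d it was 0.11 ± 0.04, which did not pass (adjusted p = 0.0573).

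These Hk2 values lay just above the array floor of 6.35, and deposited signals show the same order on a wider scale, 77.6 and 71.1 at 4 h after injury against 23.8 and 27.8 at 4 h after sham surgery. Of the 12 arrays 9 detected Hk2, and neither the sham pools at 30 min nor the WT injury pool at 30 min did. Over the alternative settings the Hk2 difference ran from 0.17 to 1.06 at 4 h and from 0.08 to 1.03 at 24 h, so that its size is not comparable with that of brighter probes. The 4 h call was close to the threshold and was kept in 4 of 19 alternative settings, with adjusted p between 0.00686 and 0.466. It was lost without any 1 pool other than the 30 min injury pools: without the WT or G93A pool at 4 h after injury (adjusted p = 0.0546 and 0.465), 24 h (0.0805 and 0.0809) or 7 d (0.0685 and 0.0738), or the WT or G93A sham pool at 30 min (0.136 and 0.134) or 4 h (0.384 and 0.466). The 24 h call of Hk2 was kept in 11 of 20 settings and was lost without the WT or G93A pool at 24 h (adjusted p = 0.276 and 0.148) or without any 1 of the sham pools (adjusted p = 0.0778 to 0.112). It was also lost with the 4 h sham pools alone, where the difference was 0.08, without the detection filter and without an intensity trend in eBayes. Deposited signals in G93A and WT pools were 32.1 and 28.0 at 24 h after injury. After sham surgery they were 23.8 and 27.8 at 4 h and 6.85 and 1.36 at 30 min.

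**Figure D2:**
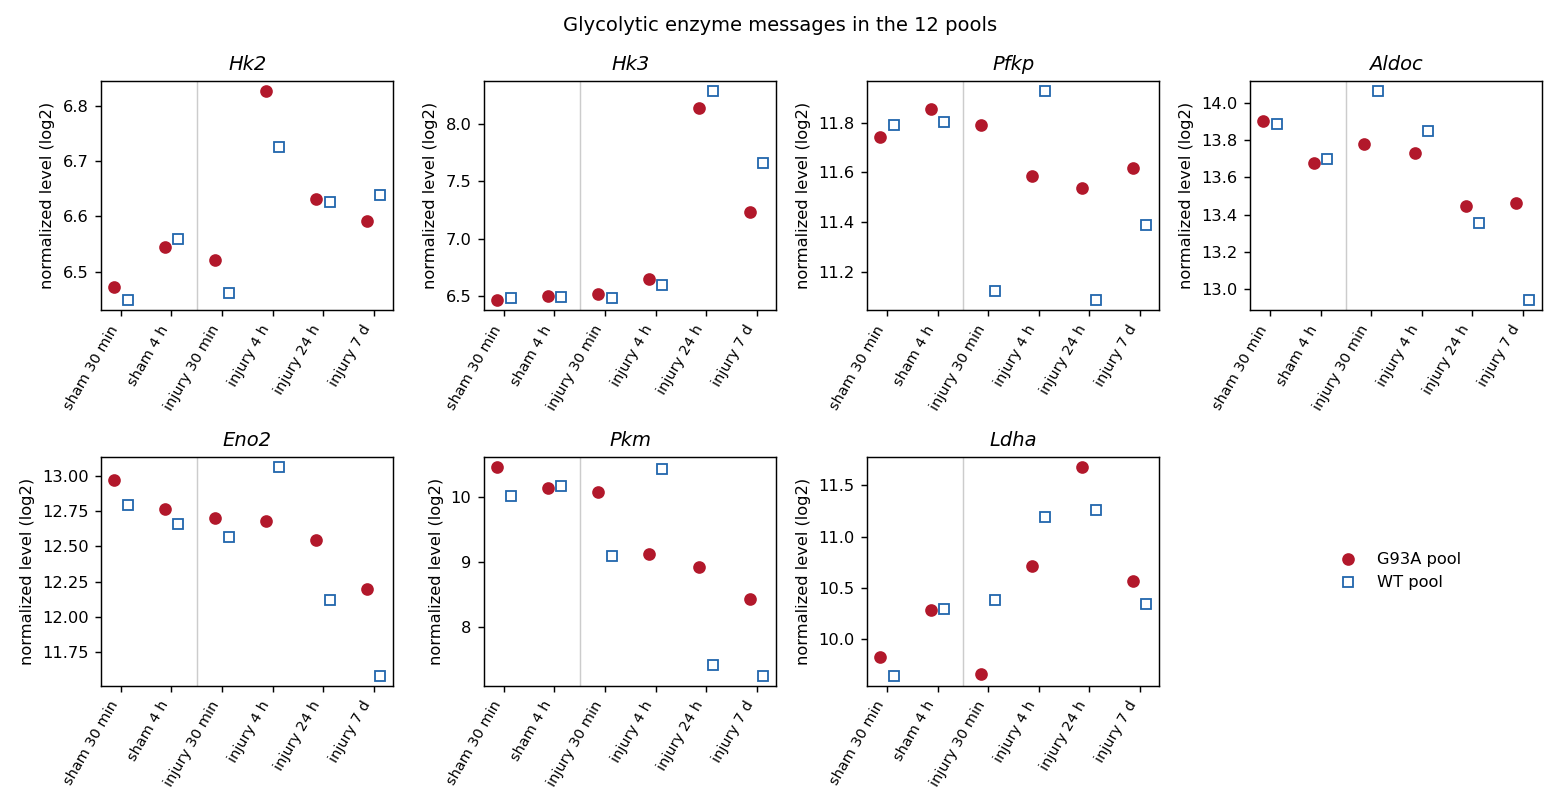
Normalized log2 level of each enzyme in every pool, with sham conditions left of the grey line and injury times right of it. Circles are G93A and squares WT pools, and each panel has its own vertical scale. Hk3 was at 8.15 and 8.29 at 24 h, above all other pools, and Pkm and Eno2 were lowest in the WT pool at 7 d.

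Pfkp, the platelet-type phosphofructokinase that is also found in brain, was not called in any comparison. It stood at 11.54 and 11.09 at 24 h and 11.62 and 11.39 at 7 d after injury in G93A and WT pools, against 11.74, 11.79, 11.86 and 11.80 in the sham pools. All 4 late pools lay below all sham pools. The difference was -0.48 ± 0.20 at 24 h (adjusted p = 0.104) and -0.30 ± 0.20 at 7 d (adjusted p = 0.33). The WT pool at 30 min after injury was also low, at 11.12, beside 11.79 in its G93A partner.

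Aldoc, aldolase C of astrocytes and some neurons, had the highest mean level of the 7 probes. It was 13.46 and 12.94 at 7 d after injury in G93A and WT pools, against 13.90, 13.89, 13.68 and 13.70 in the sham pools. Both 7 d pools lay below all sham pools, and the WT pool lay further below them. The difference was -0.59 ± 0.15 at 7 d (1.5-fold lower, adjusted p = 0.016) and -0.39 ± 0.15 at 24 h (adjusted p = 0.0817). The 7 d call was kept in 15 of 20 settings. Without the WT pool at 7 d the difference was -0.29 (adjusted p = 0.345), and the call was also lost without the WT sham pool at 30 min (adjusted p = 0.0516) or at 4 h (adjusted p = 0.0554), with the 4 h sham pools alone (adjusted p = 0.0833) and with median scaling (adjusted p = 0.0968).

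Astrocyte markers were also measured in these pools. Of 9 astrocyte markers, 6 were lower at 24 h and 4 at 7 d, beside 9.37% and 9.63% of all tested probes. Among those lower at 24 h, Slc4a4 had 2 probes that disagreed, at -1.36 (adjusted p = 0.0147, the probe counted) and -0.07 (adjusted p = 0.0999). The summed level of the 9 markers was 13857 to 14699 at 24 h and 21513 to 25593 at 7 d, against 23987 to 27585 in sham pools. Their median difference from sham was -1.12 at 24 h and -0.16 at 7 d, and that of 7 d from 24 h was 0.73. The connexin gene Gjb6 fell by 2.60 ± 0.29 at 24 h (adjusted p = 0.000295) and by 1.73 ± 0.29 at 7 d (adjusted p = 0.00214). From 24 h to 7 d Aldoc differed by -0.20 ± 0.17, which did not pass (adjusted p = 0.691). The genotypes disagreed, with 0.02 in G93A and -0.41 in WT. In that comparison 2 of the 9 markers, Gja1 and Mlc1, were called higher at 7 d, beside 2.96% of all tested probes. The other 7 were not called, and the difference between Aldoc and the markers was not tested. The part of astrocytes in the Aldoc values was not tested. The sequence upstream of Aldoc (RefSeq, GRCr8, chr10:63715294-63715543, plus strand, 250 bases) is shown because it alone among the 7 held both motifs, ACGTG (31 bases before the start) and GAGGAA (221 bases before it), each in capitals as read on this strand.
Aldoc: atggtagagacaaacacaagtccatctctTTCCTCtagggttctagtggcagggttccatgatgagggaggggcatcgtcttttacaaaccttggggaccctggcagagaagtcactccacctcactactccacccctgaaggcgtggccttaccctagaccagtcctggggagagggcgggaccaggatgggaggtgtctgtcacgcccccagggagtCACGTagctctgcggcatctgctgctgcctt

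Eno2, the neuron-specific enolase, fell at 7 d after injury. It was 12.54 and 12.12 at 24 h and 12.20 and 11.59 at 7 d in G93A and WT pools, against 12.97, 12.80, 12.77 and 12.66 in the sham pools. All late pools lay below all sham pools, with the WT pool below its G93A partner at both times. At 7 d the difference was -0.90 ± 0.18 (SE, 2 pools against 4, 1.87-fold lower, adjusted p = 0.005), and at 24 h it was -0.47 ± 0.18, which did not pass (adjusted p = 0.0873). Between 24 h and 7 d the difference was -0.44 ± 0.20 (adjusted p = 0.343). The 7 d call was kept in 19 of 20 settings and was lost without the WT pool at 7 d (-0.65, adjusted p = 0.153).

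Neuronal markers were lower in the same pools. At 24 h 7 of 11 were called lower and at 7 d 10 of 11, beside 9.37% and 9.63% of all tested probes. Their median differences were -0.94 and -1.35. Their summed level was 21189 to 26105 at 24 h and 10840 to 22008 at 7 d, against 41299 to 45992 in sham pools. Among them Snap25, a protein of the synaptic vesicle fusion machinery, fell by 2.19 ± 0.23 at 7 d (adjusted p = 0.000102), and the Eno2 difference was smaller in size than the median of that list. The part of neurons in the Eno2 values was not tested. The sequence upstream of Eno2 (RefSeq, GRCr8, chr4:159267221-159267470, minus strand, read 5′ to 3′ along the gene, 250 bases) is given as that of an enzyme that fell, for comparison with Hk3 and Ldha, which rose. Capitals mark ACGTG, 139 bases before the start.
Eno2: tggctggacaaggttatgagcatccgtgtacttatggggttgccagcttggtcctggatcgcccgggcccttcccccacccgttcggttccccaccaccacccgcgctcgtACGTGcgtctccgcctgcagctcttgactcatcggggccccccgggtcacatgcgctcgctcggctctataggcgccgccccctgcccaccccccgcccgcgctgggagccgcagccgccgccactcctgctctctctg

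Pkm, which encodes the M1 and M2 forms of pyruvate kinase through alternative splicing, made the largest decrease. Its levels were 8.92 and 7.43 at 24 h and 8.44 and 7.26 at 7 d after injury in G93A and WT pools, against 10.46, 10.02, 10.14 and 10.18 in the sham pools. The late pools did not overlap with the sham pools, and the WT pools were the lowest at both times. The difference was -2.02 ± 0.45 at 24 h (4.07-fold lower, adjusted p = 0.0109) and -2.35 ± 0.45 at 7 d (5.10-fold lower, adjusted p = 0.00449). The spread between genotypes was wide, and the 95% interval ran from -3.02 to -1.03 at 24 h and from -3.35 to -1.35 at 7 d. Without the WT pool at 24 h the 24 h difference was -1.40 (adjusted p = 0.227), without the G93A pool it was -2.64, and the call was also lost without an intensity trend in eBayes (adjusted p = 0.0584). Without the WT pool at 7 d the 7 d difference was -1.92 (adjusted p = 0.134). Neuronal markers were lower in these pools, as given for Eno2, and so were those of oligodendrocytes, 6 of 7 at 24 h and 4 of 7 at 7 d. Of all tested probes 9.37% and 9.63% were called lower at these times. The summed oligodendrocyte level was 16894 to 17884 at 24 h and 18296 to 22877 at 7 d, against 30915 to 33724 in sham pools, and the part of either cell type in the Pkm values was not tested. Pkm was read by a single probe, and its values cannot be assigned to the M1 or the M2 form here.

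Ldha, the lactate dehydrogenase subunit that favours lactate formation, went the other way. Its levels were 11.68 and 11.26 at 24 h after injury in G93A and WT pools, against 9.83, 9.65, 10.28 and 10.30 in the sham pools. Both 24 h pools lay above all sham pools, by 1.46 ± 0.23 (SE, 2 pools against 4, 2.75-fold, adjusted p = 0.00218). The call was kept in 20 of 20 settings, with adjusted p between 1e-04 and 0.0467. At 4 h the levels were 10.71 and 11.20, against 10.28 and 10.30 in the 4 h sham pools, and the difference of 0.66 ± 0.27 did not pass (adjusted p = 0.737). At 7 d the levels were 10.57 and 10.34, and the difference of 0.44 ± 0.23 did not pass (adjusted p = 0.217). From 24 h to 7 d Ldha differed by -1.02 ± 0.27, which also did not pass (adjusted p = 0.0615). It was called with median scaling (adjusted p = 0.0179) and without either the WT or the G93A pool of 30 min after injury. Leaving out either of these pools acts alike on this comparison, so they are not separate checks.

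The upstream sequence of Ldha (RefSeq, GRCr8, chr1:106507842-106508091, plus strand, 250 bases) is shown because it held the most matches of the 7. Capitals mark the palindrome CACGTG, in which ACGTG is read on both strands, 87 bases before the start, and a further match on the other strand 73 bases before it.
Ldha: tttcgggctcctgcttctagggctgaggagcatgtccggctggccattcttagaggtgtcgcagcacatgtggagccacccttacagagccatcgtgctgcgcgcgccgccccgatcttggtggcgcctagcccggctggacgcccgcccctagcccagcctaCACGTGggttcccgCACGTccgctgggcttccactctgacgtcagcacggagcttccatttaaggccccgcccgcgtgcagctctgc
ACGTG on either strand was present upstream of 4 of the 7 enzymes (Hk3, Aldoc, Eno2 and Ldha), beside 16.57% of 33469 rat promoters of the same length, and GAGGAA upstream of 3 (Hk2, Pfkp and Aldoc), beside 23.34%. Enzymes that rose and enzymes that fell both held ACGTG, and Pkm held neither motif in this window.

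Early after injury Hk2 at 4 h was the only call among the 7 enzymes. The largest other differences at 4 h were 0.66 ± 0.27 for Ldha (limma, adjusted p = 0.737) and -0.38 ± 0.52 for Pkm, and neither passed. At 30 min 0 of 7 were called, beside 0.138% of all tested probes (limma, with 890 probes at an unadjusted p under 0.05). The largest differences were -0.66 ± 0.52 for Pkm (adjusted p = 0.651), -0.31 ± 0.23 for Pfkp (adjusted p = 0.636) and 0.29 ± 0.27 for Ldha (adjusted p = 0.691), and for these genes the WT pool that stood apart gave -0.92, -0.67 and 0.74 while its G93A partner gave -0.39, 0.05 and -0.17. Between 4 h and 30 min after sham surgery 0 of 7 were called, beside 0.0508% of all tested probes, although Ldha was higher at 4 h in both genotypes, by 0.45 in G93A and 0.65 in WT pools (0.55 ± 0.27, unadjusted p = 0.0659, adjusted p = 0.999). Sham surgery was not followed to 24 h or 7 d, so that time after surgery and injury cannot be told apart in the late comparisons.

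The genotypes did not differ in a way that passed the test. Over the 6 conditions 0 of 7 enzymes were called between G93A and WT pools, beside 0% of all tested probes (316 at an unadjusted p under 0.05), and 0 of 7 were called for a genotype difference that depended on injury, again beside 0% (344 at an unadjusted p under 0.05). The largest estimate was that of Pkm, 0.46 ± 0.30 higher in G93A (95% interval -0.20 to 1.12, adjusted p = 0.979). Condition by condition, the G93A pool was above the WT pool by 1.49 at 24 h and by 1.18 at 7 d, and below it at 4 h after injury (-1.30). Eno2 had the same pattern, with 0.42 at 24 h, 0.61 at 7 d and -0.38 at 4 h after injury, and its overall estimate was 0.18 ± 0.12 (95% interval -0.08 to 0.44, adjusted p = 0.979). Each of these differences rests on 1 pool against 1.

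Other genes of glucose use were taken from lists of the pathway. Of 11 other glycolytic enzymes tested, 0 were higher and 2 were lower at 24 h, and 0 were higher and 3 were lower at 7 d, beside 20.8% and 21% of all tested probes called (9.37% and 9.63% lower). The muscle-type phosphofructokinase Pfkm differed by -1.79 ± 0.29 at 24 h (adjusted p = 0.00228) and by -1.25 ± 0.29 at 7 d (adjusted p = 0.0122). Ldhb, the lactate dehydrogenase subunit of oxidative tissue, differed by -0.82 ± 0.15 (adjusted p = 0.00492) and -0.87 ± 0.15 (adjusted p = 0.00309), opposite in sign to Ldha. Pgk1, phosphoglycerate kinase, was lower at 7 d (-0.46 ± 0.13, adjusted p = 0.0327). The ubiquitous enolase Eno1 was at 0.51 ± 0.28 at 24 h, which did not pass (adjusted p = 0.222). The list median was -0.00 at 24 h and -0.02 at 7 d, beside -0.01 for all tested probes at both times. Hk1, Gapdh, Tpi1 and Pgam1 were not analysed here.

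Among 8 transporters of glucose and lactate, the lactate exporter Slc16a3 (MCT4) rose at 24 h, by 2.16 ± 0.27 (4.47-fold, adjusted p = 0.000489), and was 1.07 ± 0.27 higher at 7 d (adjusted p = 0.0166). The hexose transporter Slc2a5 (GLUT5), a fructose carrier found in microglia, rose at 7 d, by 2.57 ± 0.24 (5.93-fold, adjusted p = 4.69e-05), beside 0.22 ± 0.24 at 24 h (adjusted p = 0.569), and the 7 d level was above the 24 h level by 2.35 ± 0.28 (adjusted p = 0.000893). So 1 of 8 was higher and 0 were lower at 24 h, and 2 were higher and 0 were lower at 7 d, beside 11.4% of all tested probes called higher at each time. The glucose transporters Slc2a1 and Slc2a3 were detected on 7 and 3 of 12 arrays, and these dim probes do not allow a statement on their change.

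Of 15 tested regulators of glycolysis and pyruvate use, 1 was higher and 2 were lower at 24 h, and 2 were higher and 3 were lower at 7 d, beside 20.8% and 21% of all tested probes called in either direction. Pdk2, a kinase that shuts off pyruvate dehydrogenase, differed by -1.36 ± 0.22 at 24 h (adjusted p = 0.00232). Pdha1, a subunit of pyruvate dehydrogenase itself, differed by -1.13 ± 0.25 at 24 h (adjusted p = 0.0112) and -1.10 ± 0.25 at 7 d (adjusted p = 0.0118), and its partner Pdhb by -0.96 ± 0.24 at 7 d (adjusted p = 0.0162). Txnip, an inhibitor of glucose uptake, was lower at 4 h (-1.01 ± 0.18, adjusted p = 0.0398, called in 5 of 19 alternative settings and lost without any 1 pool other than the 30 min injury pools) and higher at 7 d (0.79 ± 0.16, adjusted p = 0.00558). Pdk1, another pyruvate dehydrogenase kinase, was higher at 7 d (0.64 ± 0.20, adjusted p = 0.0411). The third called gene at 24 h, Pfkfb1, was detected on 4 of 12 arrays. Its difference of 0.12 ± 0.02 (adjusted p = 0.0041) ran from 0.09 to 1.29 over the alternative settings, and the call was lost without the WT pool at 24 h (adjusted p = 0.101).

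Of 8 tested enzymes of glycogen and the pentose phosphate path, 2 were higher and 3 were lower at 24 h, and the counts were the same at 7 d, beside 11.4% of all tested probes higher at each time and 9.37% and 9.63% lower. Pygl, the liver-type glycogen phosphorylase, rose by 1.17 ± 0.15 at 24 h (adjusted p = 0.000673) and by 1.88 ± 0.15 at 7 d (adjusted p = 2.09e-05), while Pygm, the muscle type also found in astrocytes, was at -1.11 ± 0.21 (adjusted p = 0.0047) and -1.43 ± 0.21 (adjusted p = 0.000918). Pgm1, which links glucose 1-phosphate to glucose 6-phosphate, was at -1.17 ± 0.22 at 24 h (adjusted p = 0.00509) and -0.93 ± 0.22 at 7 d (adjusted p = 0.0141). The brain type Pygb was at -0.92 ± 0.15 at 24 h (adjusted p = 0.00271). Rpia, which makes ribose 5-phosphate, was at 0.86 ± 0.21 at 24 h (adjusted p = 0.0174) and 0.96 ± 0.21 at 7 d (adjusted p = 0.00974). Of the skeletal muscle markers 1 of 8 tested was lower at each time, near the 9.37% and 9.63% of all tested probes called lower. The 9 on the array had summed levels of 1280 to 1350 at 24 h and 866 to 930 at 7 d, against 1880 to 2837 in sham pools. The part of muscle RNA in Pfkm and Pygm was not tested.

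**Figure D3:**
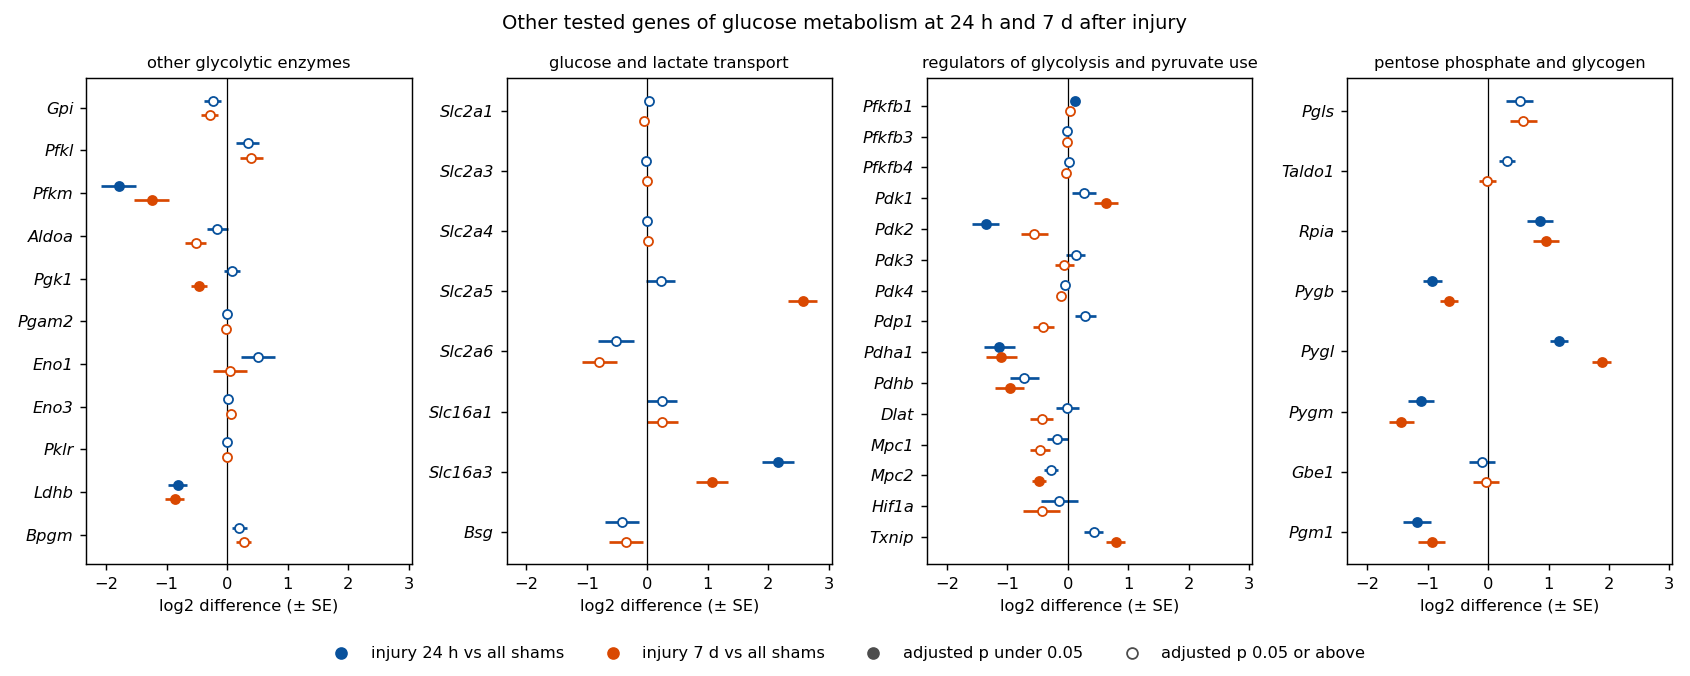
Log2 difference from all 4 sham pools at 24 h and 7 d for the tested genes of 4 lists: other glycolytic enzymes, transporters, regulators and enzymes of the pentose phosphate path and glycogen. Points are estimates of the fit, bars are standard errors and filled points had an adjusted p under 0.05, with 1.88 for Pygl and 2.57 for Slc2a5 at 7 d on the right and -1.79 for Pfkm at 24 h on the left.

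Of 8 tested genes that low oxygen is known to induce outside glycolysis, 0 were higher and 2 were lower at 24 h, and 0 were called at 7 d (limma, with 2 at an unadjusted p under 0.05), beside 20.8% and 21% of all tested probes called. Ddit4, an inhibitor of growth signalling through mTOR, differed by -1.88 ± 0.22 at 24 h (adjusted p = 0.000423), and its level at 7 d was above that at 24 h by 1.40 ± 0.26 (adjusted p = 0.012). Bnip3l, a mitophagy receptor, differed by -0.52 ± 0.16 at 24 h (adjusted p = 0.0467), and Adm, adrenomedullin, was at 0.95 ± 0.21 at 4 h (adjusted p = 0.098). Across the 5 lists 13 differences were called at 24 h and 15 at 7 d. Only Slc16a3, Pygl and Ddit4 at 24 h and Slc2a5, Pygl and Pygm at 7 d were called in every alternative setting run. Without the WT injury pool of the same time, 10 of the 13 calls at 24 h and 12 of the 15 at 7 d were lost, with adjusted p up to 0.379 and 0.295. Bnip3l at 24 h was called in 7 of 20 settings, Pdk1 at 7 d in 6, Pgk1 at 7 d in 12 and Slc16a3 at 7 d in 15, the last being lost without either 7 d pool or the G93A sham pool at 30 min. The settings for these lists were chosen after seeing the data.

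**Figure D4:**
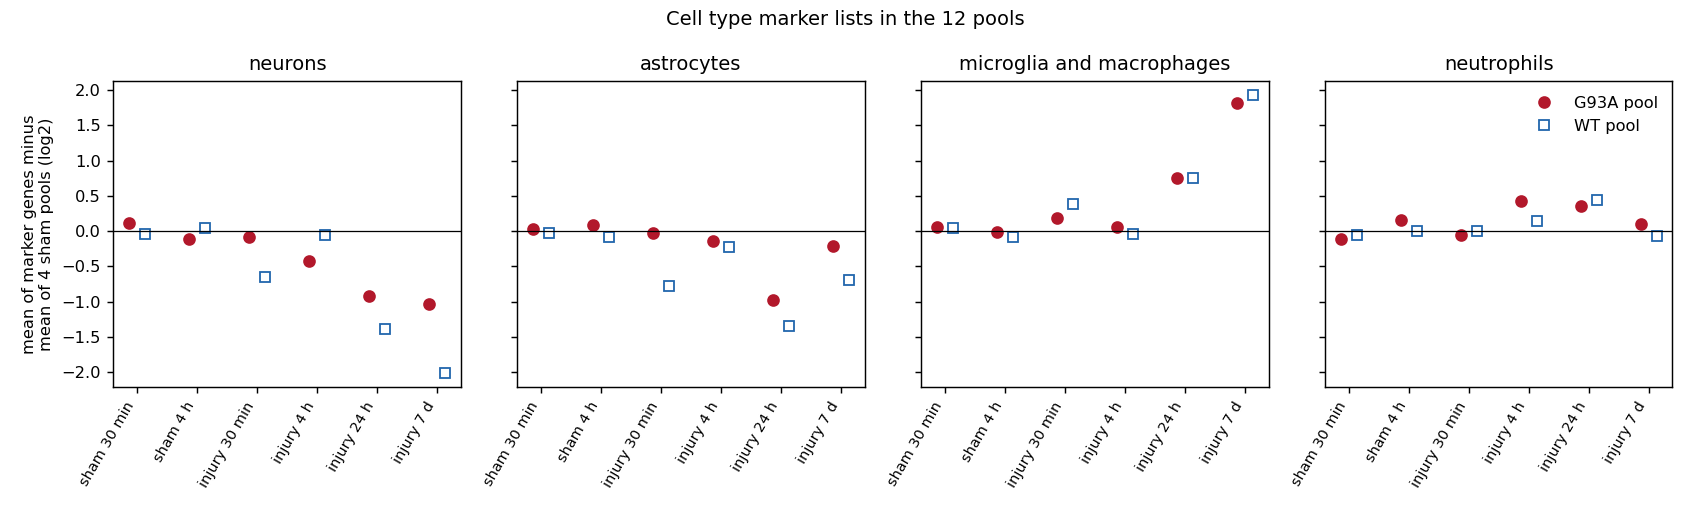
Mean log2 level of the markers of neurons, astrocytes, microglia and macrophages, and neutrophils in each pool, minus the mean of the 4 sham pools. Circles are G93A and squares WT pools. Neuronal markers were lowest at 7 d, where 10 of 11 were called lower, beside 9.63% of all tested probes. Markers of microglia and macrophages were highest at 7 d, where 8 of 10 were called higher, beside 11.4%.

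The genes whose levels ran most like those of each enzyme over the 12 pools were taken as the 3 named probes of highest Pearson r. They are given as a description, since the pools share conditions and late injury pools lie furthest from sham for most enzymes. Hk2 was instead highest in the pools at 4 h after injury (6.83 and 6.73). Pfkp was also low in the WT pool at 30 min after injury (11.12), the pool that stood apart. For Hk3 the like genes were Parp3 (r = 0.987), Ncf4 (r = 0.985), a subunit of the phagocyte NADPH oxidase, and Thbs2 (r = 0.981). For Ldha they were Ubash3b (0.949), Ogfrl1 (0.941) and Ier5l (0.922), and for Hk2 Nuak2 (0.950), Arih1 (0.948) and Il1rn (0.946), the interleukin 1 receptor antagonist. For Eno2 they were Adra1b (0.973), Chgb (0.966), a protein of neuroendocrine granules, and Fbxo2 (0.966), and for Pkm Tecr (0.987), Bex2 (0.980) and Cds1 (0.980). For Aldoc they were Cabp7 (0.980), Ncdn (0.977) and Ina (0.974), the neuronal filament protein internexin, and for Pfkp Trak1 (0.973), Lrrc47 (0.957) and Topors (0.953).

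Set in order over the 6 conditions, Hk3 ran lowest in both sham conditions and at 30 min after injury, then 4 h, 7 d and 24 h after injury, and the pools of neighbouring conditions did not overlap from 30 min after injury upward. Ldha was likewise highest at 24 h, but 4 h came next and 7 d after it, and no overlap between the pools at 24 h, 4 h, 7 d and 4 h after sham surgery. Eno2, Aldoc and Pkm shared the bottom of the order, 7 d and then 24 h after injury. For each of these 3 the pools at 7 d and 24 h overlapped, and the 24 h pools lay below those of every other condition. For Pfkp only the step between the sham pools at 30 min and at 4 h was free of overlap.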

How the data were processed

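RNA pools of rat thoracic cord were measured on Illumina bead arrays, 1 array a pool. The deposited values are probe intensity without normalization and a detection p-value for each probe, which the authors exported from BeadStudio 3.2.6 per the submitters' processing notes. Mean signal per array lay between 324.9 and 326.9, and 21.0% to 28.6% of signals were below 0. The deposited probe identifiers were sorted as text beside the values in file order, since probes of the same gene then correlated (median r of 0.54 over 86 genes, against 0.01 over 87 genes as deposited). A single gene symbol was available for 13192 of 22226 probes, no symbol for 9034 and several symbols for 0.

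Values were normalized with limma 3.58.1 in R 4.3.3 (neqc, offset 16, quantile). Probes with a detection p under 0.05 on at least 2 of 12 arrays were tested (13793, of which 9423 had a name). One limma model held condition and genotype (5 residual degrees of freedom, 4 with an interaction), with an intensity trend in eBayes, and p-values were adjusted by the Benjamini-Hochberg method over all tested probes in each comparison. The 24 h and 7 d pools were set against all 4 sham pools. On simulated data for the 24 h comparison over 13793 probes, 79% of changes of 1 and 98% of changes of 2 (log2) were called, with 10 unchanged probes called. Only 100 probes were changed at each size there, noise was independent between probes and no pool stood apart. These shares need not hold for the real arrays. Alternatives covered background correction, normalization, offset, detection filter, eBayes trend, sham pools and each pool left out. The members and lists were chosen with earlier results of these data known. Named list genes were up to 4 called genes of largest difference per list and comparison. Rpia at 24 h, which ranked below these 4, and a few uncalled genes chosen after their values were seen were also named. Python 3.11.15 was used for upstream sequences, and figures were drawn with matplotlib 3.10.9.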

Additional observations from a re-analysis of the deposited data

How the results depend on the processing

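Of 1078 alternative values of the 7 enzymes, 989 kept direction and call, 37 lost a call, 18 gained one and 34 changed sign. The sign changes fell in 18 pairs of gene and comparison, and 0 of them were called in either fit. No paired analysis was possible because the labels give no replicate numbers and each genotype and condition has 1 pool, with condition already a term of the fit. The causes of the changes below were not tested.

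Counts of called probes moved as follows. At 30 min, 6 were called without the eBayes trend, in place of 19. At 4 h, 41 were called with the series matrix values, 156 with median scaling and 14 without the trend, in place of 76. With the 4 h sham pools alone, 1532 were called at 24 h and 1902 at 7 d, in place of 2870 and 2899. Between 7 d and 24 h, 352 were called with the series matrix values, in place of 624. Between the sham times, 20 were called without background correction, 26 with the series matrix values, 4 without the detection filter and 4 without the trend, in place of 7. Leaving out 1 pool at a time gave 0 to 4206 calls at 30 min, 0 to 236 at 4 h, 469 to 5058 at 24 h, 640 to 4910 at 7 d, 136 to 1498 between 7 d and 24 h, 2 to 27 between sham times and 0 to 3 for the interaction.

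Sign changes under other settings were Hk3 in the interaction with the series matrix values (0.10) and, with median scaling, Ldha at 30 min (-0.0511), Pfkp between 7 d and 24 h (-0.21) and between sham times (-0.10), and Aldoc (-0.00318) and Ldha (0.0124) between genotypes. With 1 pool left out, the 30 min difference ranged from -0.0424 to 0.092 for Hk3, -0.16 to 0.22 for Aldoc and -0.11 to 0.68 for Ldha. The 4 h difference ranged from -0.38 to 0.23 for Pfkp, -0.18 to 0.49 for Eno2 and -1.43 to 0.68 for Pkm. Between 7 d and 24 h the ranges were -0.0546 to 0.0283 for Hk2, -0.49 to 0.095 for Aldoc and -0.95 to 0.29 for Pkm. Between sham times they were -0.0288 to 0.0774 for Hk3, -0.066 to 0.19 for Pfkp and -0.38 to 0.22 for Pkm. Between genotypes they were -0.0627 to 0.10 for Aldoc and -0.16 to 0.0649 for Ldha, and in the interaction -0.10 to 0.17 for Aldoc and -0.0811 to 0.25 for Eno2.

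Signal over background limits Hk2 and Hk3, which were detected on 9 and 8 of 12 arrays and whose differences near the array floor are compressed by the offset.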
